A study of Mus musculus with 40 samples.

Results

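The mouse genes for 3 superoxide dismutases (Sod1, Sod2 and Sod3), 6 peroxiredoxins (Prdx1 to Prdx6) and catalase (Cat) were followed through 40 mRNA-seq libraries of midbrain and spinal cord. They were taken by gene symbol, 10 of the 40213 symbols in the count tables, and all 10 passed the filter on low counts in both tissues. All mice were 8-week-old male C57BL/6N. The Con group received saline, whereas the other groups received 4 intraperitoneal injections of MPTP at 20 mg/kg, spaced 2 h apart. MPTP is a toxin used to model Parkinson's disease because it damages dopaminergic neurons. A week later, Con and MPTP-Veh mice began to receive saline at the acupoint GB34. MPTP-SU mice began a course of 4 injections of SU-Eohyeol pharmacopuncture (SUEHP), a herbal extract, at the same point. MPTP-SU+S mice were given SUEHP with a CB1 antagonist, spelled SR141714A in the labels, at 3 mg/kg, and MPTP-SU+T mice were given SUEHP with the PPARγ inhibitor T0070907 at 5 mg/kg. Each of these 5 groups had 4 replicates per tissue. The dissected part of the midbrain and the level of the spinal cord used for RNA are not given in the sources used here.

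These enzymes remove superoxide and hydrogen peroxide, by-products of respiration and of oxidases. Superoxide dismutases turn superoxide into hydrogen peroxide, with Sod1 mainly in the cytosol, Sod2 in the mitochondrial matrix and Sod3 secreted. Peroxiredoxins reduce peroxides through a reactive cysteine that most members then have restored by thioredoxin, while catalase breaks down hydrogen peroxide in peroxisomes. In the brain, oxidative stress is one of the processes long linked to MPTP toxicity.

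Totals of estimated counts per library were 11958200 to 16639823 for midbrain and 14642808 to 16615378 for spinal cord, and the 10 genes together took 0.0855% to 0.155% of a midbrain library. Values are given in CPM, the share of a library's counts in the usual per-million unit, scaled by TMM within each tissue, unless stated otherwise. The tissue labels matched position markers: the summed level of 9 Hox genes of the spinal cord was at most 1.98 CPM in any midbrain library and at least 543 CPM in any spinal cord library. The library of MPTP-Veh replicate 4 in the midbrain stood apart. Mitochondrially encoded genes took 1.35% of its counts, against 9.92% to 17.5% in the other 19 midbrain libraries, and its rank correlation with the median of the others was 0.888, against at least 0.987. Haemoglobin genes took 0.224% of its counts, against at most 0.0417% in the others. The 10 genes took 0.155% of its counts, against at most 0.107% in the others. The main midbrain results are therefore given with and without it. The labels do not state that replicates came from separate mice, so p-values measure the spread between these samples.

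Sequences upstream of the transcription start are shown for 4 genes whose midbrain levels differed between MPTP-SU and MPTP-Veh: Sod1 and Prdx5, which were lower, and Prdx1 and Prdx3, which were higher. The RefSeq sequences (mouse GRCm38.p6) are the 150 bases before the start, at chr16:90220612-90220761 (plus strand) for Sod1, chr4:116685449-116685598 (plus strand) for Prdx1, chr19:60874539-60874688 (minus strand) for Prdx3 and chr19:6910107-6910256 (minus strand) for Prdx5. Capitals mark matches on either strand to the antioxidant response element TGACNNNGC, the TATA box TATAAA, the CCAAT box CCAAT and the GC box GGGCGG.
Sod1: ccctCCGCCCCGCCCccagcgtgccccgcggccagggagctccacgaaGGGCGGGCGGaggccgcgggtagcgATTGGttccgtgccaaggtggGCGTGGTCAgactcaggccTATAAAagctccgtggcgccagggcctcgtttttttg
Prdx1: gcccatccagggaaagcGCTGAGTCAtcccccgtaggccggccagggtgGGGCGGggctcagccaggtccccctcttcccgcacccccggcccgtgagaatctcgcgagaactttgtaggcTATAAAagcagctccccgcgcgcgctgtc
Prdx3: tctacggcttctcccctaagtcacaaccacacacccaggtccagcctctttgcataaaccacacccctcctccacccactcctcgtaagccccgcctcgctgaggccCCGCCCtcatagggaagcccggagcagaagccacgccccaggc
Prdx5: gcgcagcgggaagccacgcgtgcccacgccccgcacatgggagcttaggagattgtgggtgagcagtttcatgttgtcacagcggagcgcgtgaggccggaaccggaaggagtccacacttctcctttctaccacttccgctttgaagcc
The antioxidant response element, the binding motif of Nrf2, was matched in the 250 bases before the start of Sod1 and Prdx1, and in no other of the 8 genes with an entry. Across 32851 promoters of the same length, 10.16% held that match, 12.37% the TATA box, 33.85% the CCAAT box and 32.74% the GC box. Sod1 and Prdx1 also share a TATA box match. The part of these motifs in the midbrain differences was not tested. The Prdx5 window printed here held none of the 4 motifs, although a GC box lay further upstream, 242 to 237 bases before the start. The TATA match of Prdx3 also lay outside the printed window, 239 to 234 bases before the start. Overlapping GC boxes in Sod1 were counted separately, as 4 matches.

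Levels per kilobase were taken from CPM scaled by TMM over all 40 libraries. Compared per kilobase of the longest RefSeq mRNA, Sod1 was the most abundant of the 10 transcripts in Con mice, at 261 ± 8.93 CPM per kb in the midbrain and, in spinal cord, 270 ± 36.1 (SD, n = 4). Prdx5, a peroxiredoxin found in mitochondria, peroxisomes and cytosol, came second, at 103 ± 3.47 in midbrain and 91.2 ± 13.7 in spinal cord. Prdx2, a cytosolic form abundant in neurons, was at 78.2 ± 2.54 and 63.6 ± 3.32 CPM per kb. Prdx6, the 1-cysteine member, was at 55.4 ± 4.16 in midbrain and 74.1 ± 5.69 in spinal cord, where it overlapped with Prdx5. With these lengths Prdx2 ranked above Prdx6 in the midbrain, with the Con libraries apart, and Prdx6 ranked above Prdx2 in the spinal cord. Prdx1, the main cytosolic form, stood at 47.4 ± 2.09 and 49.7 ± 3.21 CPM per kb, followed in the midbrain by the mitochondrial Prdx3 at 31.4 ± 1.73, Cat at 28.9 ± 1.62 and Sod2 at 24.0 ± 1.36. Cat and Prdx3 overlapped between midbrain libraries, whereas in the spinal cord Cat, at 39.5 ± 4.11, lay above Prdx3, at 28.3 ± 2.76, and Sod2, at 27.4 ± 1.45, overlapped with Prdx3. The lowest were Prdx4, which resides in the endoplasmic reticulum, at 10.8 ± 0.785 and 10.2 ± 1.46, and the secreted Sod3, at 6.74 ± 0.814 and 6.03 ± 0.664 CPM per kb. The order depends on the transcript taken for each symbol. With the longest annotated transcript, a retained intron in the case of Sod1, Sod1 ranked 5 in both tissues, while Sod3 stayed lowest and Prdx4 next to it under both of these lengths. With the median transcript length Sod2 ranked 1 and Sod1 6 in both tissues, and Prdx6 ranked above Prdx2 in the midbrain too (138 and 116 CPM per kb). The retrocopy Prdx6b was counted 0 to 4 times per library, and reads shared with other copies were not examined.

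The first midbrain comparison, MPTP-Veh against Con, addresses the effect of MPTP. None of the 10 genes passed edgeR's quasi-likelihood test at a Benjamini-Hochberg adjusted p below 0.05, where 0.018% of all genes did. Unadjusted p-values were below 0.05 for 4 genes, against 23.7% of all genes. DESeq2 called 3 (Sod1, Prdx4 and Prdx5), against 2.13% of all genes. Sod1 measured 162, 164, 175 and 167 CPM in the Con libraries and 223, 198, 197 and 395 CPM in the MPTP-Veh libraries. Every MPTP-Veh library lay above every Con library. Sod1 differed by 0.60 ± 0.17 on the log2 scale (SE, adjusted p = 0.130), and by 0.30 without replicate 4 (adjusted p = 0.225). Prdx5 measured 123, 131, 131 and 134 CPM in Con and 163, 156, 134 and 544 CPM in MPTP-Veh. Replicate 4 held more than 3 times the Prdx5 level of any other library in its group. The difference of Prdx5 was 0.94 ± 0.30 (adjusted p = 0.131) with that library and 0.22 without it (adjusted p = 0.356).

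Prdx4, the endoplasmic reticulum enzyme, measured 10.4, 11.8, 10.05 and 10.5 CPM in Con and 13.0, 15.1, 12.8 and 19.6 CPM in MPTP-Veh. The groups did not overlap, with a difference of 0.50 ± 0.14 (adjusted p = 0.130), or 0.35 without replicate 4 (adjusted p = 0.263). Prdx2 was also separate, at 120 to 131 CPM in Con and 133 to 301 CPM in MPTP-Veh, a difference of 0.51 ± 0.20 (adjusted p = 0.151) that was 0.13 without replicate 4. Thus 4 of the 10 genes did not overlap between the groups, against 12.4% of all genes, and without replicate 4 the number was also 4, against 16.4%. The test without replicate 4 called 0 of the 10, against 0.00594% of all genes, with 3 at an unadjusted p below 0.05. The share of all genes at that unadjusted level was not counted without replicate 4. Sod2, Sod3, Prdx1, Prdx3, Prdx6 and Cat overlapped between the groups. Leaving out MPTP-Veh replicate 3 instead raised the number called from 0 to 3 of the 10, where 1306 of 16891 genes were called. The summed level of 8 markers of dopaminergic neurons was 367 to 544 CPM in Con and 361 to 676 CPM in MPTP-Veh, and 0 of the 8 passed the test. Markers of cortex and hippocampus summed to 79.99 to 189 CPM in Con and 71.6 to 78.5 CPM in MPTP-Veh, without overlap. Those of choroid plexus summed to 49.9 to 1278 and 39.99 to 59.1 CPM, and those of midbrain position to 35.1 to 70.4 and 63.9 to 103 CPM. No marker of these lists passed the test, and their part in the differences of the 10 genes was not tested.

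SUEHP was compared with vehicle in MPTP-treated mice (MPTP-SU against MPTP-Veh), and 5 of the 10 genes passed the test in the midbrain, against 20.1% of all genes. Sod1, Prdx5 and Sod3 fell, whereas Prdx3 and Prdx1 rose. The 5 also did not overlap between the groups, against 21.9% of all genes. All were called without MPTP-Veh replicate 4, where 14.6% of all genes were called. In these bulk samples, fewer cells of a type and less RNA per cell cannot be told apart.

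**Figure D1:**
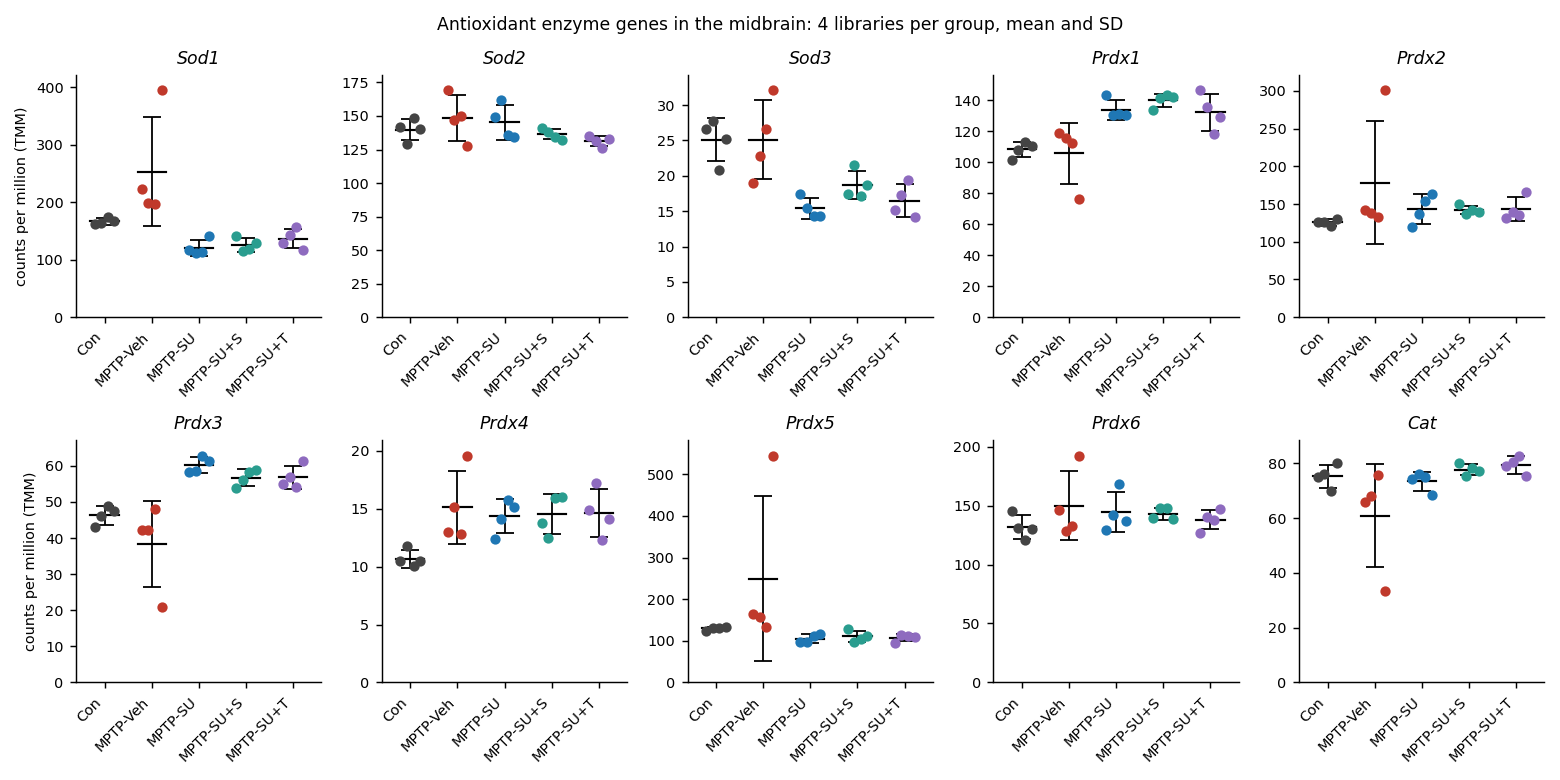
CPM (TMM) of the 10 genes in the midbrain, 1 panel per gene with the y axis from 0. Points are the 4 libraries of each group, ordered by replicate number, and black bars give the mean and SD. Sod1 lies between 111 and 157 CPM in the 12 libraries with SUEHP, below all Con and MPTP-Veh libraries, and Prdx3 between 53.7 and 62.8 CPM, above all of them. The share of all genes separated in this way was not counted. The far point in the MPTP-Veh group is replicate 4.

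Sod1, the copper and zinc enzyme of the cytosol, measured 117, 111, 114 and 142 CPM in the MPTP-SU libraries, against 197 to 395 CPM in MPTP-Veh. All 4 MPTP-SU libraries lay below all MPTP-Veh libraries. Sod1 fell by 1.06 on the log2 scale (SE 0.18, adjusted p = 0.00296), to 0.479 of the vehicle level. Without replicate 4 it fell by 0.77 (SE 0.10, adjusted p = 0.000152), to 0.588 of the vehicle level, so the call did not rest on that library. Sod1 was called in all 8 fits that left out 1 of the compared libraries.

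Prdx5 measured 96.5, 97.7, 111 and 117 CPM in MPTP-SU, each below the lowest MPTP-Veh library at 134 CPM. Its fall of 1.24 (SE 0.30, adjusted p = 0.0153) was the largest among the 10 genes with all libraries. Without replicate 4 the fall was 0.52 (SE 0.10, adjusted p = 0.00169), to 0.698 of the vehicle level. The size of the Prdx5 difference thus depended on 1 library, while its direction did not.

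Sod3, the secreted enzyme, measured 17.4, 15.4, 14.3 and 14.4 CPM in MPTP-SU and 18.99, 22.8, 26.6 and 32.1 CPM in MPTP-Veh. The groups did not overlap, although MPTP-SU replicate 1 and MPTP-Veh replicate 1 were close. Sod3 fell by 0.71 (SE 0.15, adjusted p = 0.00887), or by 0.57 without replicate 4 (SE 0.13, adjusted p = 0.00794). The summed level of 8 leptomeningeal fibroblast markers was 140 to 347 CPM in MPTP-Veh and 153 to 213 CPM in MPTP-SU, and that of 8 blood vessel markers was 369 to 483 and 360 to 385 CPM. In neither list was any marker at 0 in a whole group, and their part in the Sod3 result was not tested.

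Prdx3, which serves the mitochondrial matrix, measured 58.2, 58.6, 62.8 and 61.3 CPM in MPTP-SU and 42.2, 42.3, 48.1 and 20.98 CPM in MPTP-Veh. The rise of 0.65 (SE 0.16, adjusted p = 0.0157) was 0.45 without replicate 4 (SE 0.07, adjusted p = 0.000561), a level 1.36 times that of the vehicle group. Prdx1 measured 143, 131, 131 and 130.3 CPM in MPTP-SU and 119, 116, 113 and 76.2 CPM in MPTP-Veh. Both genes were higher in every MPTP-SU library than in any MPTP-Veh library. The rise of Prdx1 was 0.34 (SE 0.11, adjusted p = 0.0431), and 0.21 without replicate 4 (SE 0.07, adjusted p = 0.0486), the smallest of the 5 and close to the threshold. Prdx1 was called in 4 of the 8 fits that left out 1 library, losing its call without any 1 MPTP-SU library, and Prdx5 lost its call without MPTP-SU replicate 2 (adjusted p = 0.0505).

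The remaining 5 genes did not pass the test, and their 95% confidence intervals hold for this scaling and model only. Sod2 lay outside its interval after the correction for GC content and length given below. Sod2, the manganese enzyme of mitochondria, differed by -0.03 (interval -0.22 to 0.16), with 134 to 162 CPM in MPTP-SU and 128 to 169 CPM in MPTP-Veh. Cat differed by 0.27 (interval -0.06 to 0.60), and its 3 MPTP-Veh libraries other than replicate 4, at 65.8 to 75.8 CPM, overlapped with MPTP-SU at 68.2 to 75.9 CPM. Prdx2 differed by -0.31 (interval -0.72 to 0.09), and by 0.06 without replicate 4, which measured 301 CPM. Prdx4 and Prdx6 differed by -0.07 and -0.05, with intervals of -0.37 to 0.23 and -0.30 to 0.19. Without replicate 4 these 5 genes again did not pass the test, with Sod2 at -0.10, Cat at 0.07, Prdx4 at 0.08 and Prdx6 at 0.09.

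Transcript length and marker levels moved with this comparison. The 3815 genes with the shortest transcripts (up to 1913 bases) had a median log2 difference of -0.23, and the 3813 with the longest a median of 0.19. Sod1, at 641 bases, and Prdx5, at 1262 bases, belong to the short mRNAs, as does Prdx3, at 1478 bases, whereas Sod3 has 3738 bases. After removal of a trend with GC content and RefSeq mRNA length, a correction chosen after seeing the data, the difference was -0.65 for Sod1 (adjusted p = 0.00115), -0.51 for Prdx5 (adjusted p = 0.0122), -0.61 for Sod3 (adjusted p = 0.00687) and 0.64 for Prdx3 (adjusted p = 0.00383). Prdx1 was then at 0.11 (adjusted p = 0.270) and lost its call, while Sod2, a 5861-base mRNA, was at -0.48 (adjusted p = 0.0162) and gained one. Markers of the thalamus, a neighbouring region, summed to 237 to 914 CPM in MPTP-Veh and 632 to 1648 CPM in MPTP-SU, with 2 of 6 higher, and markers of midbrain position to 63.9 to 103 and 36.8 to 50.6 CPM, with 3 of 6 lower. Markers of microglia summed to 242 to 447 CPM in MPTP-Veh and 242 to 289 CPM in MPTP-SU, with 3 of 8 lower, and those of oligodendrocytes to 11599 to 35796 and 10495 to 13239 CPM, with 1 of 8 lower. Astrocyte markers summed to 3098 to 3854 CPM in MPTP-Veh and 3185 to 3493 CPM in MPTP-SU, with 3 of 8 lower, and neuronal markers to 5043 to 6150 and 4986 to 6118 CPM, with 2 of 8 lower. Red blood cell markers summed to 241 to 2529 CPM in MPTP-Veh and 290 to 342 CPM in MPTP-SU, with 1 of 5 higher and 2 lower, and markers of hypothalamus and pituitary to 9.03 to 779 and 5.80 to 37.8 CPM, with 3 of 5 lower. Of the blood vessel and dopaminergic neuron markers 1 of 8 was lower in each list, and 1 of 5 motor neuron markers was higher. The part of these marker levels in the differences of the 10 genes was not tested. Fitted on the 8 libraries of the 2 groups alone, 0 of 15764 genes passed edgeR's test, and Sod1 had an adjusted p of 0.223 (unadjusted p = 0.00175).

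**Figure D2:**
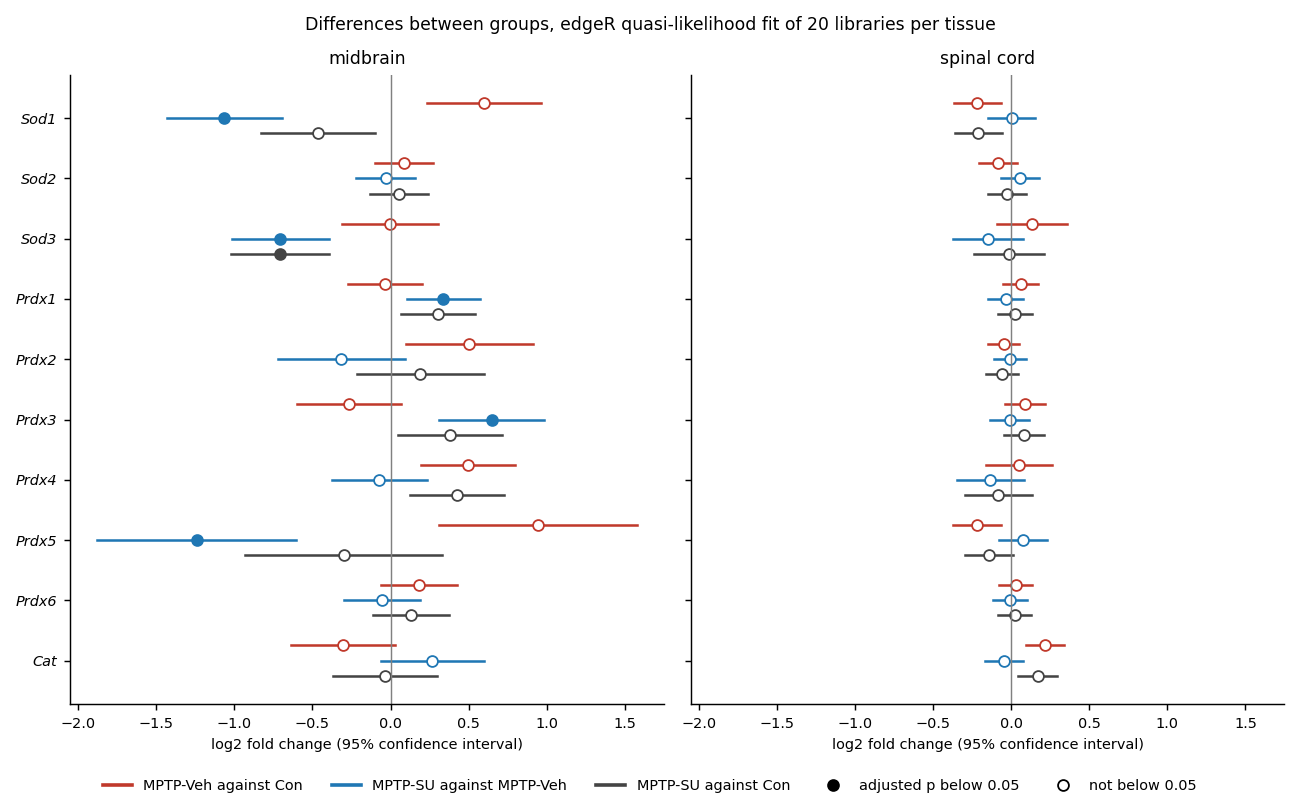
Log2 fold change with 95% confidence interval (x axis) for each of the 10 genes (y axis) in 3 comparisons, midbrain on the left and spinal cord on the right. Filled points have an adjusted p below 0.05. In the midbrain 5 genes are filled for MPTP-SU against MPTP-Veh and 1, Sod3, for MPTP-SU against Con, while none is filled in the spinal cord, where all points lie between -0.22 and 0.22.

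MPTP-SU was also set against Con, to ask whether levels under SUEHP lay at those of mice given saline alone. Only Sod3 passed the test, at 20.9 to 27.8 CPM in Con and 14.3 to 17.4 CPM in MPTP-SU, a fall of 0.71 (SE 0.15, adjusted p = 0.0280), where 1.25% of all genes were called. Leptomeningeal markers also separated these groups, at 288 to 509 CPM in Con and 153 to 213 CPM in MPTP-SU, with 1 of 8 lower. Those of choroid plexus summed to 49.9 to 1278 and 45.8 to 59.6 CPM, with 1 of 7 lower, and those of cortex and hippocampus to 80.0 to 189 and 55.5 to 90.5 CPM, with 1 of 5 lower. Their part in the Sod3 result was not tested. However, 6 of the 10 genes did not overlap between the groups, against 19.6% of all genes. Sod1 and Prdx5 lay below Con, at 111 to 142 against 162 to 175 CPM and at 96.5 to 117 against 123 to 134 CPM. Prdx1, Prdx3 and Prdx4 lay above Con, at 130 to 143 against 102 to 113 CPM, 58.2 to 62.8 against 42.9 to 48.9 CPM and 12.4 to 15.7 against 10.05 to 11.8 CPM. Neither Con nor MPTP-SU contains the outlying library, but the model shares 1 estimate of the spread over all groups. Without MPTP-Veh replicate 4, all 6 genes passed the test, when 15.7% of all genes did. The differences from Con were then -0.46 for Sod1 (adjusted p = 0.00389), -0.71 for Sod3 (adjusted p = 0.00158), -0.30 for Prdx5 (adjusted p = 0.0294), 0.31 for Prdx1 (adjusted p = 0.00490), 0.38 for Prdx3 (adjusted p = 0.00137) and 0.43 for Prdx4 (adjusted p = 0.0198). The same 6 were called when the 8 libraries of both groups were fitted alone, where 13.9% of all genes were called. Scaled by library size alone, the median of all genes in this comparison was -0.11 instead of 0.0075, and 6.38% instead of 18.3% of the called genes were higher. Leaving out any of Con replicates 1, 2 and 4 or of the 4 MPTP-SU libraries left 0 calls, with MPTP-Veh replicate 4 in the fit. In those fits 12 to 110 of all genes tested were called.

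**Figure D3:**
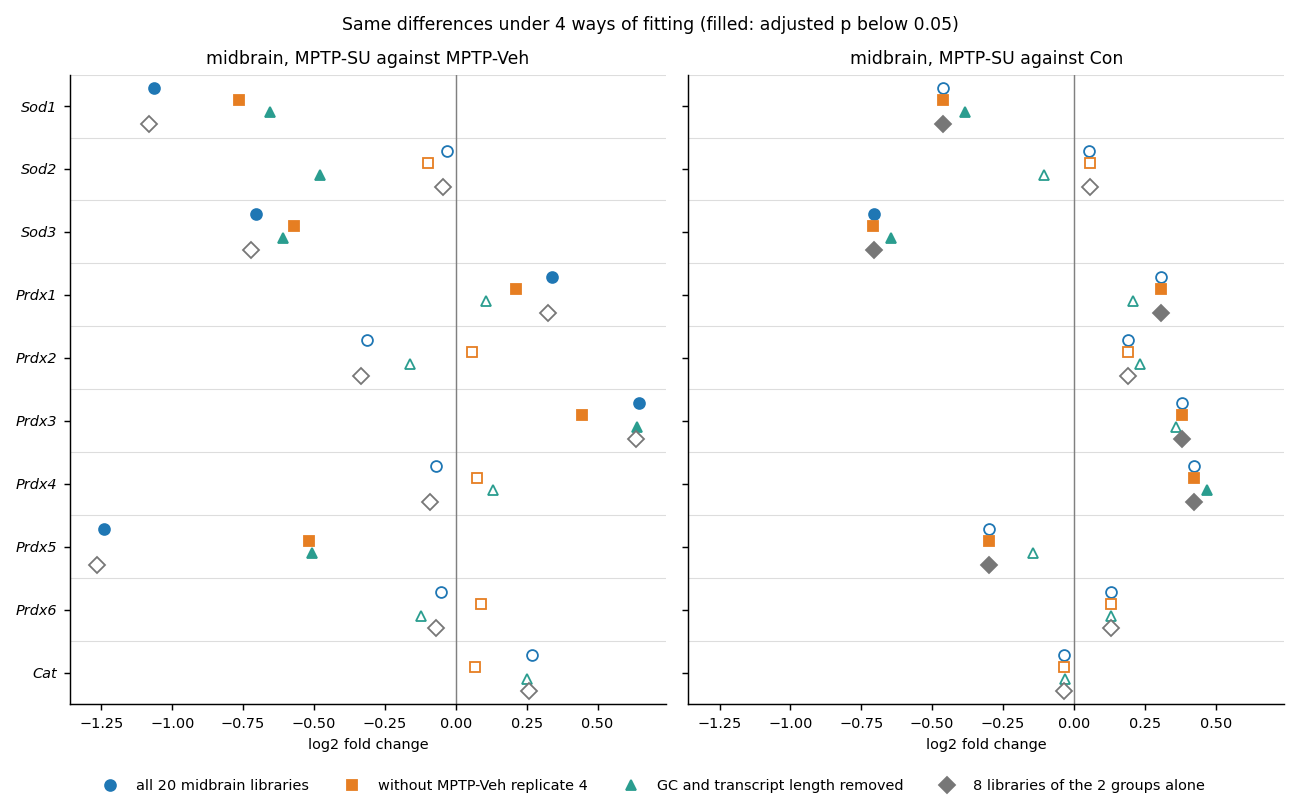
Log2 fold change (x axis) of the 10 genes (y axis) for MPTP-SU against MPTP-Veh (left) and against Con (right) in the midbrain, under 4 ways of fitting marked by symbol and colour. Filled symbols have an adjusted p below 0.05. Leaving out MPTP-Veh replicate 4 moves Sod1 from -1.06 to -0.77 and Prdx5 from -1.24 to -0.52 on the left, while on the right the values stay in place and the number of filled genes goes from 1 to 6.

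The groups that received an inhibitor with SUEHP address whether CB1 or PPARγ is needed for its effect. None of the 10 genes passed edgeR's test between MPTP-SU+S or MPTP-SU+T and MPTP-SU, where 0% of all genes did. DESeq2 called 0 of the 10 in both comparisons, against 0 and 1 of 28801 genes. At an unadjusted p below 0.05 the count was also 0, against 1.65% and 1.7% of all genes. None of the 10 was separate between these groups, against 2.15% and 1.96% of all genes. Without MPTP-Veh replicate 4, which is in neither group but in the shared fit, 0 passed the test, against 0% of all genes. In that fit the count at an unadjusted p below 0.05 was 1 in each comparison, Sod3 for MPTP-SU+S and Sod2 for MPTP-SU+T. The share of all genes at that unadjusted level was not counted, so these counts cannot be set against it. Sod1 measured 142, 115, 118 and 129.5 CPM in MPTP-SU+S and 129, 143, 157 and 118 CPM in MPTP-SU+T, which overlapped with the 111 to 142 CPM of MPTP-SU. Its differences from MPTP-SU were 0.06 (95% interval -0.31 to 0.42) and 0.18 (interval -0.19 to 0.54). Prdx3 measured 53.7, 56.1, 58.3 and 58.9 CPM in MPTP-SU+S and 55.0, 57.0, 54.1 and 61.3 CPM in MPTP-SU+T, with differences of -0.09 (interval -0.42 to 0.25) and -0.08 (interval -0.42 to 0.25). All 12 libraries with SUEHP therefore lay below the 8 libraries without it for Sod1 and above them for Prdx3. The same 12 lay between 95.8 and 128 CPM for Prdx5, against 123 to 134 CPM in Con. The share of all genes with the 12 libraries apart from the 8 was not counted.

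Against MPTP-Veh, 4 genes passed the test in each inhibitor group, where 8.35% of all genes were called for MPTP-SU+S and 5.42% for MPTP-SU+T. These comparisons share the MPTP-Veh libraries with the previous ones. Separate groups were found for 4 of the 10 genes in MPTP-SU+S, against 17.8% of all genes, and for 3 in MPTP-SU+T, against 15.9%. In MPTP-SU+S, Sod1 fell by 1.01 (SE 0.17, adjusted p = 0.00613) and Prdx5 by 1.17 (adjusted p = 0.0304), while Prdx3 rose by 0.56 (adjusted p = 0.0401) and Prdx1 by 0.40 (adjusted p = 0.0369). In MPTP-SU+T, Sod1 fell by 0.89 (SE 0.17, adjusted p = 0.0232), Prdx5 by 1.21 (adjusted p = 0.0408) and Sod3 by 0.60 (adjusted p = 0.0387), while Prdx3 rose by 0.56 (adjusted p = 0.0482). Sod3 in MPTP-SU+S, at 17.2 to 21.6 CPM, and Prdx1 in MPTP-SU+T, at 118 to 146 CPM, missed the threshold with adjusted p-values of 0.0713 and 0.0729. Without MPTP-Veh replicate 4, the number called was again 4 in both comparisons, against 7.74% and 4.98% of all genes, with falls of 0.71 and 0.59 for Sod1. The number of separate genes was then 5 for MPTP-SU+S, against 21.4% of all genes, and 4 for MPTP-SU+T, against 18.1%. Fitted on the 8 libraries compared alone, 0 of the 10 genes passed in either comparison, where 0% of all genes did. Scaled by library size alone, 2 passed for MPTP-SU+S and 1 for MPTP-SU+T, against 4.73% and 0.968% of all genes. With the replicate number as a block, 1 gene was called for MPTP-SU+T, against 0.535% of all genes. Leaving out MPTP-SU+S replicate 1 left 2 calls, where 827 of 16875 genes were called. Leaving out its replicate 2, 3 or 4 left 1, where 94, 118 and 236 of all genes were called. Leaving out MPTP-SU+T replicate 1, 2 or 4 left 0, where 3, 19 and 3 of all genes were called. Leaving out its replicate 3 left 2, where 673 of 16877 genes were called.

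In the spinal cord, none of the 10 genes passed edgeR's test in any of the 7 comparisons of groups, where the share of all genes called was 0% in 5 comparisons, 0.036% for MPTP-SU+T against MPTP-SU and 0.00599% for MPTP-SU+T against MPTP-Veh. At an unadjusted p below 0.05, the count was 3 for MPTP-Veh against Con (12.8% of all genes), 2 for MPTP-SU against Con (9.17%), 2 for MPTP-SU+T against MPTP-Veh (11.9%) and 1 for MPTP-SU+T against MPTP-SU (12.1%). It was 0 for MPTP-SU against MPTP-Veh (3.81%), MPTP-SU+S against MPTP-SU (5.49%) and MPTP-SU+S against MPTP-Veh (4.56%). DESeq2 called 1 gene, Cat, in MPTP-Veh against Con, where 75 of 28776 genes were called, and 0 elsewhere. Spinal cord libraries varied less than midbrain ones, with a common dispersion of 0.0071 against 0.0512.

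**Figure D4:**
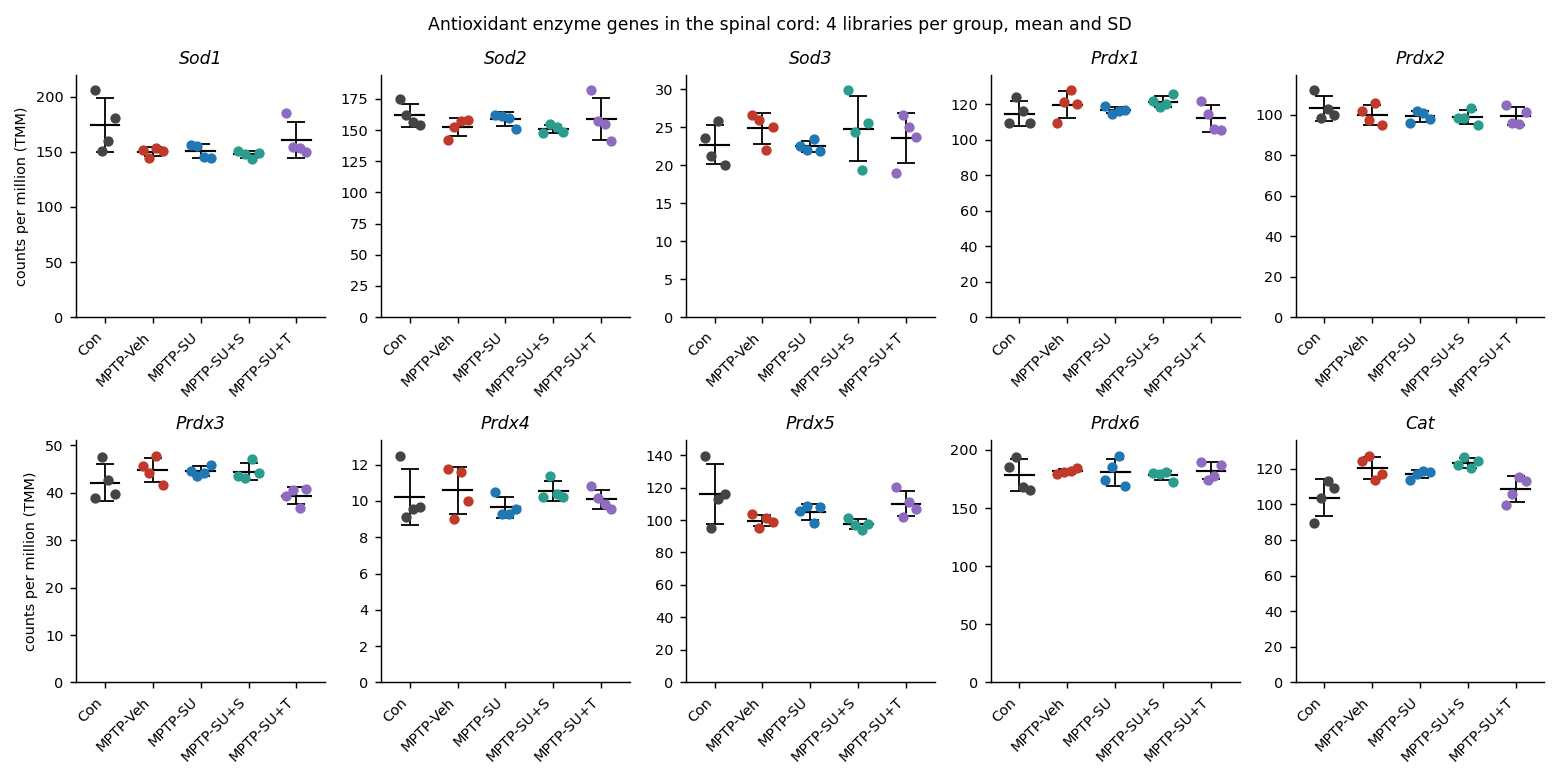
CPM (TMM) of the 10 genes in the spinal cord, 1 panel per gene with the y axis from 0. Points are the 4 libraries of each group in order of replicate number, with the mean and SD in black. Cat is at 114 to 127 CPM in all 4 MPTP-Veh libraries and 89.5 to 113 CPM in Con, and Con replicate 1 is the highest Sod1 library, at 206 CPM.

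Cat, which degrades hydrogen peroxide in peroxisomes, measured 89.5, 104, 113 and 109 CPM in Con and 124, 127, 114 and 117 CPM in MPTP-Veh in the spinal cord. The groups were separate, by less than 1 CPM at their nearest libraries. The difference was 0.22 ± 0.06 (adjusted p = 0.202), and 1 of the 10 genes was separate in this comparison, against 4.73% of all genes. Sod1 and Prdx5 were -0.22 ± 0.07 and -0.22 ± 0.08 relative to Con (adjusted p = 0.250 and 0.251). Con replicate 1 was the highest for both, with 206 CPM of Sod1 and 140 CPM of Prdx5, against 151 to 180 CPM and 95.2 to 116 CPM in the other Con libraries. Without Con replicate 2, Sod1 and Prdx5 passed the test, with differences of -0.27 (adjusted p = 0.0331) and -0.30 (adjusted p = 0.0240). In that fit 630 of 16862 genes passed.

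Cat was also separate between Con and MPTP-SU, at 114 to 119 CPM (1 of the 10 genes, against 3.51% of all genes), and between MPTP-SU and MPTP-SU+S, at 120.4 to 126 CPM (1 of the 10, against 4.19%). Neither difference passed the test.

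MPTP-SU and MPTP-Veh did not separate for any of the 10 genes in the spinal cord, against 3.27% of all genes. Sod1 measured 144 to 156 CPM in MPTP-SU and 144 to 153 CPM in MPTP-Veh, and Prdx5 97.9 to 109 and 95.3 to 103 CPM. Prdx3 measured 39.3, 40.5, 36.8 and 40.9 CPM in MPTP-SU+T, below the 43.5 to 45.9 CPM of MPTP-SU and the 41.6 to 47.8 CPM of MPTP-Veh. Its differences of -0.18 ± 0.06 and -0.19 ± 0.06 did not pass the test (adjusted p = 0.257 and 0.296), and Prdx3 was the 1 separate gene in each comparison, against 8.04% and 6.19% of all genes. Between MPTP-SU+S and MPTP-Veh 0 genes were separate, against 3.38%. Sod2, Sod3, Prdx1, Prdx2, Prdx4 and Prdx6 had no unadjusted p below 0.05 in any of the 7 comparisons. Across the 5 groups, the test for any difference called 0 of the 10 genes in the spinal cord, where 0.15% of all genes were called, and 3 in the midbrain (Sod1, Sod3 and Prdx5), where 7.1% were.

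The difference between tissues was tested directly, in 1 fit of all 40 libraries. For MPTP-SU against MPTP-Veh, 5 of the 10 genes had a midbrain difference unlike that in the spinal cord, against 16.8% of all genes. The midbrain minus spinal cord value was -1.06 ± 0.19 for Sod1 (adjusted p = 0.000853), -1.31 ± 0.32 for Prdx5 (adjusted p = 0.00781), -0.55 ± 0.19 for Sod3 (adjusted p = 0.0422), 0.66 ± 0.17 for Prdx3 (adjusted p = 0.0115) and 0.38 ± 0.12 for Prdx1 (adjusted p = 0.0342). Without midbrain MPTP-Veh replicate 4, these were -0.75 for Sod1, -0.58 for Prdx5, 0.47 for Prdx3 and 0.26 for Prdx1, all still called, whereas Sod3 was at -0.41 and not called (adjusted p = 0.134). Sod3 was called in 5, and Prdx1 in 14, of the 16 fits that left out 1 library. For MPTP-Veh against Con, Sod1 (0.80 ± 0.19, adjusted p = 0.0402) and Prdx5 (1.14 ± 0.32, adjusted p = 0.0487) differed between tissues, against 3.12% of all genes. Without that library Sod1 stayed called, at 0.52 (adjusted p = 0.0409), and Prdx5 did not, and Sod1 was not called in 9 of the 16 fits that left out 1 library: Con replicate 1, 2 or 4 of the midbrain, Con replicate 1 or 4 of the spinal cord, or any MPTP-Veh library of the spinal cord. Prdx5 was called in 4 of these 16 fits.

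In Con mice, 3 of the 10 genes differed between midbrain and spinal cord, all lower in the midbrain, where 29.8% of all genes were called in either direction. With Prdx2, which was higher in the midbrain and missed the threshold (0.30, adjusted p = 0.117), 4 of the 10 did not overlap, against 37.3% of all genes. On the joint scale, Cat was at 75.4 ± 4.24 CPM in the midbrain and 103 ± 10.7 CPM in the spinal cord (SD, n = 4), a difference of -0.45 ± 0.12 (SE, adjusted p = 0.00442). Prdx6 was at 132 ± 9.93 and 177 ± 13.6 CPM (-0.42 ± 0.09, adjusted p = 0.000299), and Sod2 at 140.4 ± 7.99 and 161 ± 8.49 CPM (-0.20 ± 0.07, adjusted p = 0.0416). The Sod2 call held in 9 of 16 alternative fits, including 5 of the 8 that left out 1 library. Across them its difference was as small as -0.019 and its adjusted p as large as 0.904. Cat and Prdx6 were called in all 16. Sod1, at 168 ± 5.72 and 173 ± 23.1 CPM, overlapped between the tissues.

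Over all 5 groups, 8 of the 10 genes differed between the tissues, a number to be read against 66.2% of all genes. Prdx2, Prdx3, Prdx4 and Prdx5 were higher in the midbrain, by 0.55, 0.26, 0.44 and 0.34 on the log2 scale, and Sod2, Sod3, Prdx6 and Cat were lower, by values of -0.15, -0.25, -0.34 and -0.64. Only Cat was called and past 1.5-fold, as were 22% of all genes, at 73.5 ± 10.5 CPM in 20 midbrain libraries and 114 ± 9.76 CPM in 20 spinal cord libraries. Cat and Prdx2 did not overlap between the tissues, against 9.08% of all genes. The groups weigh on these averages, since Prdx5 in the midbrain includes the library at 544 CPM. The value of Sod2 changed sign, to 0.06, after removal of a GC and length trend and was then not called.

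**Figure D5:**
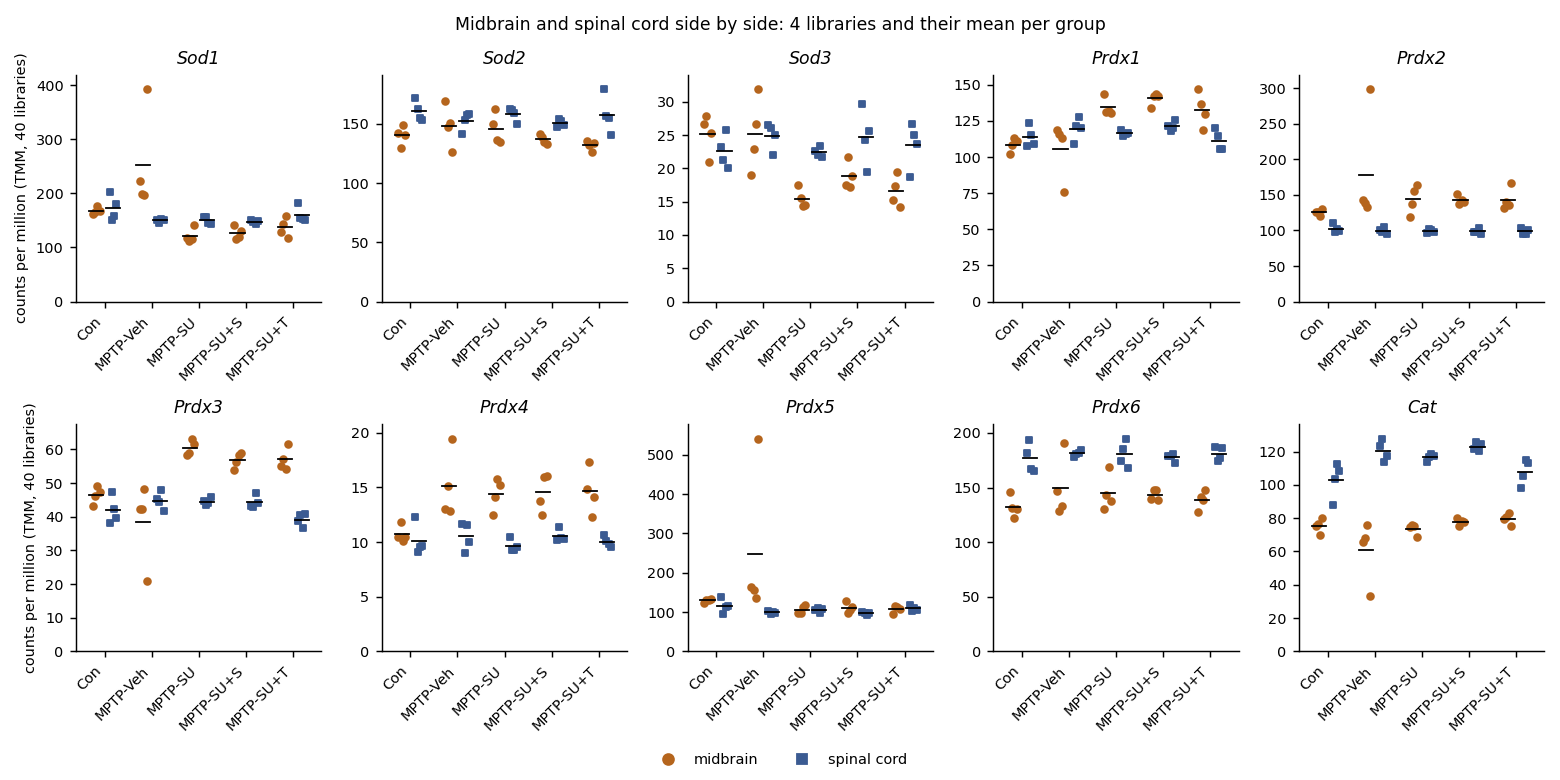
CPM (TMM over all 40 libraries) in midbrain (circles) and spinal cord (squares), 4 libraries and their mean (line) per group, 1 panel per gene with the y axis from 0. Cat is lower in every midbrain library than in every spinal cord library, and Prdx2 higher, while Sod1 is higher in every midbrain library of MPTP-Veh and lower in every one of MPTP-SU and MPTP-SU+S than in the spinal cord libraries of that group.

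The enzymes that work with these 10 genes were taken from 5 lists, and are given for MPTP-SU against MPTP-Veh in the midbrain, where 7.38% of all genes were called higher and 12.8% lower. Of the called genes 36.6% were higher, a share that was 15.7% when scaled by library size alone. Of 12 genes of the thioredoxin and sulfiredoxin cycle, which restores peroxiredoxins, 2 rose and 0 fell. These were Srxn1, the sulfiredoxin that repairs over-oxidised peroxiredoxins (0.33 ± 0.10, adjusted p = 0.0338), and Sesn1, a stress-induced sestrin (0.45 ± 0.11, adjusted p = 0.0150). Of 5 glutathione peroxidases tested, 0 passed. In the list of glutathione synthesis and reduction, with 10 genes, Gclm, the modifier subunit of the enzyme that limits glutathione synthesis, rose by 0.70 (SE 0.14, adjusted p = 0.00793), while Glrx3 (-0.36, adjusted p = 0.0104) and Gstp1 (-0.56, adjusted p = 0.0292) fell. Gstp1 may share reads with its near-identical paralogs.

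In a list of 9 genes that handle copper or manganese, metals that superoxide dismutases use, 1 fell. This was Cox17, a copper chaperone for cytochrome c oxidase, at 34.3 ± 2.83 CPM in MPTP-SU and 62.8 ± 19.2 CPM in MPTP-Veh (SD, n = 4). The difference was -0.87 ± 0.16 (SE, adjusted p = 0.00466). Ccs, which loads copper into Sod1, was at -0.89 and missed the threshold (adjusted p = 0.0502). Of 12 sources of superoxide and hydrogen peroxide tested, Aox1 rose (0.81, adjusted p = 0.0326) and Dao fell (-1.96, adjusted p = 0.0180). Without MPTP-Veh replicate 4, 6.55% of all genes were called higher and 8.07% lower. Without that library Sesn1, Gclm, Glrx3, Cox17 and Dao kept their calls, Srxn1, Gstp1 and Aox1 lost theirs, and Sesn2 gained one. The median log2 difference of the 5 lists lay between -0.11 and 0.14, against 0.0007 over all genes, and that of the 10 genes was -0.06. In the spinal cord 0 genes of the 5 lists were called in this comparison, and in MPTP-Veh against Con 0 were called in either tissue.

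By Pearson's r of log2 CPM over the 20 midbrain libraries, which share their groups and their scaling, the profile most like that of Sod1 was Pfdn2, a prefoldin subunit (r = 0.99, and 0.98 without MPTP-Veh replicate 4), followed by Hypk and Eef1b2. Prdx5 was most like Myl6, Cltb and Rpl41 (r = 0.99 each, 0.95 to 0.96 without that library). Prdx3 was most like Tmed7 and Tmem230 (r = 0.97, 0.91 and 0.92 without it). These values describe likeness of level across libraries only.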

How the data were processed

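The 40 libraries were made from total RNA with a CORALL RNA-seq V2 kit. Per the labels, RNA was extracted with RNAiso Plus, whereas the study's methods name an Easy-Spin kit, and the CB1 antagonist, SR141714A in the labels, is SR141716A in the methods. The submitters' processing notes name fastp, STAR, Salmon, GATK and the build GRCm39, with no versions and no annotation. The authors deposited estimated counts per gene symbol for each sample, as whole numbers and not normalized. Use of molecular identifiers is not given in the sources used here. The reference at hand was GRCm38, so no gene coordinates are given beside the counts.

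Counts were rounded and analysed in R 4.3.3 with edgeR 4.0.16: filterByExpr (16629 of 40213 symbols kept in the midbrain, 16682 in the spinal cord, 17426 over both), TMM, and a quasi-likelihood F-test of group within each tissue over 20 libraries, or over 40 for comparisons between tissues. P-values were adjusted by Benjamini-Hochberg over all genes tested, and a gene was called at an adjusted p below 0.05. The study's 1.5-fold threshold was counted beside it. Differences are log2 fold changes with standard errors, and confidence intervals are 95%. Separate groups are those whose 4 values do not overlap, for which the exact two-sided permutation test of 4 against 4 gives its smallest possible p, 0.0286. The calling steps were tested on simulated data. Transcript lengths came from a GENCODE annotation of GRCm38, covering 91.72% of tested midbrain genes, and promoter sequences from RefSeq.

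The 10 genes, the lists and the comparisons were chosen with earlier results of these data known. The text names the 10 genes, the called genes with the 3 smallest p-values of each pathway list, the genes most like a member, and genes called without MPTP-Veh replicate 4, which were named after their values were seen. Alternatives were DESeq2 1.42.0, other scalings, filters and call rules, the compared groups alone, replicate number as a block, removal of GC and length trends, and each library left out in turn. Correlations of deviations between samples with the same replicate number ran up to 0.378, and 3 of 4 were above 0.1 in 3 midbrain comparisons, but in no comparison were all 4, so the numbers were not taken as pairs. No 2 libraries agreed within sampling noise, and 0 columns of other samples were found. Results of 1 further gene list are not reported here.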

Additional observations from a re-analysis of the deposited data

Results flagged for a closer look

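In 9 of 100 groups of 4 libraries, 1 for each gene, tissue and group, the highest or lowest library stood apart from the other 3 by Dixon's criterion, which chance flags in about 1 of 20 groups. MPTP-Veh replicate 4 of the midbrain accounted for 4 of them. It held 394.8 CPM of Sod1, with the nearest replicate at 223 CPM, 300.6 CPM of Prdx2, with the nearest at 142.4 CPM, and 544.4 CPM of Prdx5, with the nearest at 163.4 CPM. Prdx1 was low in the same library, at 76.22 CPM, against 112.5 CPM in the nearest. The other midbrain value apart was Prdx1 in MPTP-SU replicate 1, at 143.5 CPM against 131.2 CPM.

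In the spinal cord, Sod1 in MPTP-SU+T replicate 1 was high at 185 CPM, with the nearest at 154.3 CPM. Prdx4 was high in Con replicate 1, at 12.49 CPM against 9.674 CPM, and in MPTP-SU+S replicate 2, at 11.39 CPM against 10.38 CPM. Prdx6 in MPTP-SU+S replicate 4 was low, at 172.2 CPM against 179.6 CPM.

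Differences that were not alike in midbrain and spinal cord, by the test of the difference itself, numbered 7 of 20. These were 2 of the 10 genes for MPTP-Veh against Con, where 3.12% of all genes were called. The other 5 of 10 were for MPTP-SU against MPTP-Veh, where 16.8% of all genes were called. For MPTP-Veh against Con, the midbrain minus spinal cord value was 0.7987 for Sod1 and 1.141 for Prdx5 on the log2 scale. For MPTP-SU against MPTP-Veh, it was -1.059 for Sod1, -0.5514 for Sod3, 0.3795 for Prdx1, 0.6579 for Prdx3 and -1.306 for Prdx5. The midbrain MPTP-Veh group in all 7 includes replicate 4, and without it Prdx5 in the first comparison and Sod3 in the second lost their calls. Of 16 fits that each left out 1 library, Sod1 was called in 7 and Prdx5 in 4 in the first comparison. In the second, Sod3 was called in 5 of 16.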

How the results depend on the processing

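Of 3690 values of the 10 genes under alternatives, 3515 kept their direction and side of the threshold, 114 lost a call, 60 gained one and 1 reversed: Sod2 between tissues over the 5 groups, 0.062 instead of -0.15 after a GC and length correction. In 199 of those counted as kept, the sign changed between values not called under either setting. The causes were not tested. The number of genes called changed by more than 1.5 times as follows. For MPTP-Veh against Con, DESeq2 gave 3 in midbrain and 1 in spinal cord, instead of 0. It called 614 of 28801 and 75 of 28776 genes there. The groups compared alone gave 0 for each SUEHP group against MPTP-Veh, where 0% of all genes were called. They gave 6, instead of 1, for MPTP-SU against Con, against 13.9% of all genes. In that comparison library size alone and the GC and length correction gave 2 each and RefSeq lengths 3. The shares of all genes were 3.49%, 3.76% and 3.93%. Library size alone gave 2 for MPTP-SU+S and 1 for MPTP-SU+T against MPTP-Veh, where 4.73% and 0.968% of all genes were called. For the tissue difference it gave 0 in MPTP-Veh against Con, where 1 of 17426 genes was called. In MPTP-SU against MPTP-Veh it gave 3 for that difference, where 2045 of 17426 genes were called. For MPTP-SU+S against MPTP-Veh no low-count filter gave 2, with 950 of 28801 genes called, and the 1.5-fold threshold 2. That threshold gave 0 between the tissues of Con mice and 1 over the 5 groups, where 22% of all genes passed it. The share of all genes passing it is not given here for MPTP-SU+S against MPTP-Veh or the tissues of Con mice. For any difference among groups, at least 10 counts in every library gave 5 for midbrain, with 1253 of 13822 genes called. No filter gave 1 for spinal cord, with 445 of 28776 genes called. With the replicate number as a block, 1 gene instead of 4 was called for MPTP-SU+T against MPTP-Veh, against 0.535% of all genes. Not all 4 same-number correlations exceeded 0.1 in any comparison.

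Leaving out 1 library at a time, the midbrain counts ranged from 0 to 3 for MPTP-Veh against Con, 3 to 5 for MPTP-SU, 1 to 5 for MPTP-SU+S and 0 to 5 for MPTP-SU+T against MPTP-Veh, 0 to 6 for MPTP-SU against Con and 2 to 6 for any difference. The lowest count for MPTP-SU against MPTP-Veh came without MPTP-SU replicate 2, where 849 of 16899 genes were called. The highest count came with 1306 of 16891 genes called for MPTP-Veh against Con and 2641 of 16831 for MPTP-SU against Con. For any difference it came with 2443 of 16831. At the lowest counts, 94 to 236 genes were called for MPTP-SU+S and 3 to 19 for MPTP-SU+T against MPTP-Veh. Those for MPTP-SU against Con came with 12 to 110 genes called. Spinal cord counts ran from 0 to 2 for MPTP-Veh against Con and 0 to 4 for any difference, both highest without Con replicate 2. In that fit 630 and 1224 of 16862 genes were called. Between tissues they ranged from 2 to 3 in Con mice, from 8 to 9 over the 5 groups, from 0 to 6 for the difference in MPTP-Veh against Con and from 3 to 6 for that in MPTP-SU against MPTP-Veh, the last 2 highest without midbrain MPTP-Veh replicate 3. For the difference in MPTP-Veh against Con, the count of 6 came with 3551 of 17664 genes called. Its counts of 0 came with 1 to 133 genes called. For that in MPTP-SU against MPTP-Veh, the count of 3 came with 2125 of 17664 genes called. The share of all genes is not given here for the other fits. Group levels moved beyond 1 SD in 4 of 200 cases under 2 other scalings.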
